A study of Danio rerio with 7 samples.

Results

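The interferon response and antigen presentation genes described here are 8 rows of a zebrafish count table of 32105 Ensembl gene rows, chosen by symbol: stat2, irf1b, irf9, isg15, b2m, psmb8a, psmb9a and tap1. Of these, 5 symbols matched a row as written and tap1 matched TAP1. The symbol table gives 1 row named PSMB8 and 1 named PSMB9, with no paralog suffix, and these rows are given under those names. The libraries hold polyadenylated RNA of gata1-positive erythroid cells from embryos at 40 hours post fertilization, and GATA1 is the factor that drives red cell genes. Siblings gave 4 libraries, numbered 1, 3, 4 and 5, and embryos mutant for ddx41, a DEAD-box helicase gene, gave 3, numbered 2, 3 and 4. The labels give no allele, no genotype of the siblings beyond their name, and no number of embryos per library. They do not say whether libraries came from separate clutches, and p-values therefore describe only how these libraries vary, which may be technical.

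Interferons are secreted proteins that bind paired receptor chains on the cell surface and activate Janus kinases, which phosphorylate STAT proteins. A complex that includes STAT2 and IRF9 then switches on interferon-stimulated genes such as isg15, while IRF1 acts in the response to gamma interferon. One arm of that response raises antigen presentation by MHC class I: inducible proteasome subunits cut proteins, the TAP transporter carries the peptides into the endoplasmic reticulum, and beta-2-microglobulin (b2m) pairs with the class I chain that displays them. Mammalian DDX41 is known as a sensor of DNA in the cytosol that can start interferon production, and the design sets erythroid cells with the mutation against those of siblings.

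Total counts ran from 11814324 to 14363255 per library, so that 3 counts correspond to 0.190 to 0.250 CPM (counts scaled to a common library size, adjusted by TMM). Of 18565 genes tested with edgeR's quasi-likelihood test, 3073 (16.6%) passed a Benjamini-Hochberg adjusted p of 0.05 and are termed called. The higher calls made up 8.87% and the lower calls 7.69% of the tested genes. Siblings and mutants had separate ranges at 27.5% of these genes, with mutants higher at 14.6% and lower at 12.8%. Labels could not be checked on ddx41 itself, whose transcript was not analysed here. Of 24 listed erythroid symbols 20 matched a row, and hbbe1.1, hbbe1.2, hbbe1.3 and hbbe2 did not. The matched erythroid markers were abundant in every library, at a summed 107352 to 154750 CPM in siblings and 51503 to 104484 CPM in mutants. None of the matched rows was without counts. Every mutant sum lay below every sibling sum. Of these 21 rows 15 had a log2 fold change below 0 and 6 above. Their median was -0.36, against 0.04 over all tested genes, and ran from -0.65 to -0.19 on leaving out each library in turn. Among the 21, 3 were called lower and 2 higher. The higher calls fell to 1 on leaving out any single library other than ddx41 mutant replicate 4. Macrophage and pan-leukocyte markers were also present, at 1406 to 2316 CPM in siblings and 816 to 1546 CPM in mutants. Of 11 tested muscle markers 6 were called lower, at a summed 61.1 to 123 CPM in siblings and 49.1 to 54.3 CPM in mutants, and 3 were called lower on leaving out sibling replicate 1 or 5 or ddx41 mutant replicate 2; their part in the results was not tested.

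None of the 5 tested genes was called higher or lower in the mutants (edgeR), and none had an unadjusted p under 0.05. DESeq2 and limma-voom also called 0 of the members they tested. This share of 0% stands beside 16.6% over all tested genes. All 5 had overlapping groups, and their median log2 fold change was -0.17, against 0.04 over all tested genes. The median was 0.04 without ddx41 mutant replicate 4, and also without sibling replicate 3, where only 4 members were tested. Of the 5, 3 genes, stat2, irf1b and irf9, were counted well enough for their 95% intervals to lie within a 2-fold change in either direction. The other 2 tested genes, b2m and TAP1, had wide intervals, and isg15, PSMB8 and PSMB9 had too few counts for the test.

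**Figure D1:**
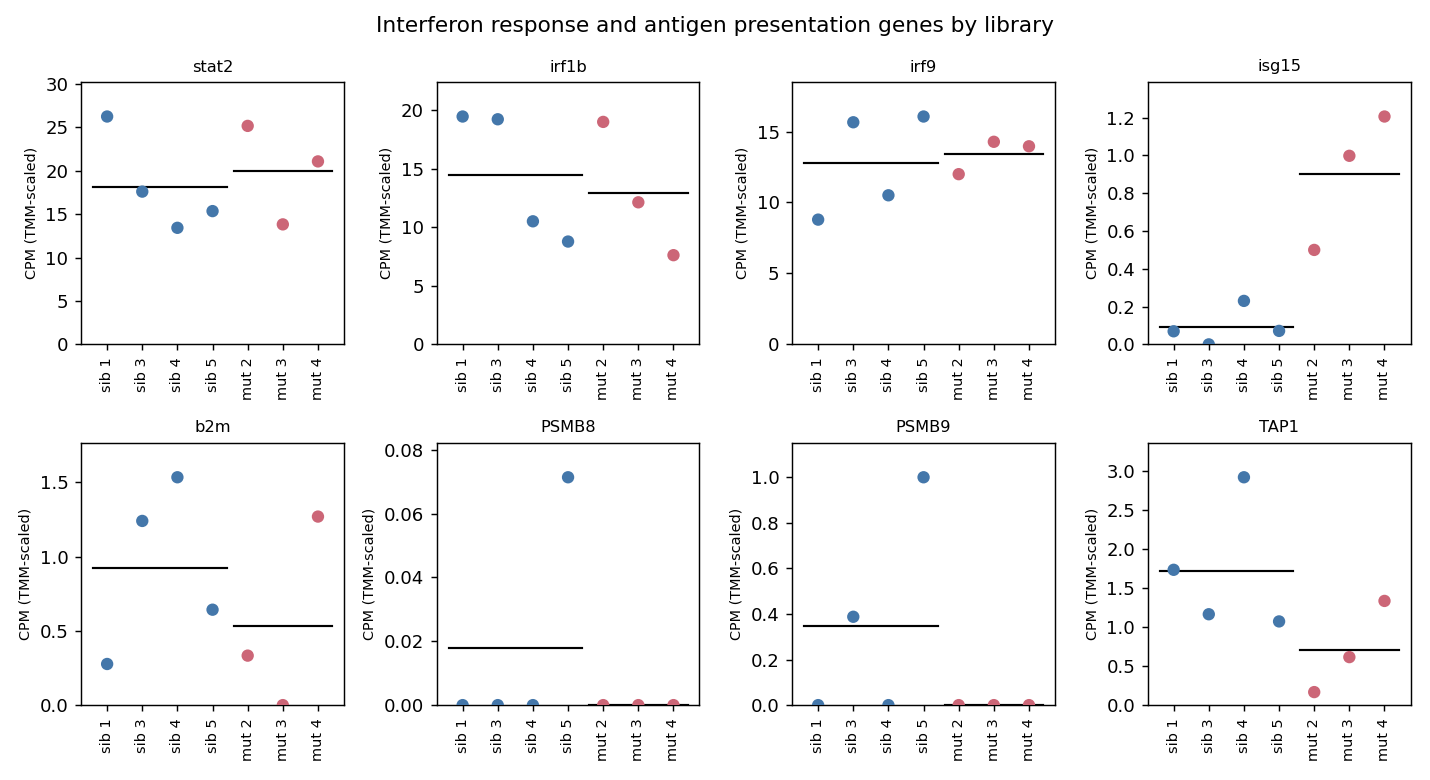
CPM (TMM-scaled, linear axis from 0, its own range in each panel) of the 8 genes in the 4 sibling (blue) and 3 ddx41 mutant (red) libraries, 1 point per library, with the group mean as a line. The groups overlap at every gene except isg15, where the mutants lie at 0.500 to 1.21 CPM and the siblings at 0 to 0.230 CPM.

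The transcription factors had more counts than the other members. The stat2 gene, whose product is part of the complex that carries the type I interferon signal to the nucleus, had 26.2, 17.6, 13.4 and 15.3 CPM in siblings and 25.2, 13.8 and 21.1 CPM in mutants. The highest library was a sibling and the next a mutant, and the means were 18.2 ± 5.66 CPM (SD, n = 4) and 20.02 ± 5.74 CPM (SD, n = 3). The 95% interval of its fold ran from 0.727 to 1.67-fold (edgeR adjusted p = 0.787). The irf9 gene, which encodes the DNA-binding partner of that complex, had 8.79, 15.7, 10.5 and 16.1 CPM in siblings and 12.0, 14.3 and 14.0 CPM in mutants. The 3 mutants fell inside the range of the siblings, and the log2 fold change was 0.07 ± 0.28 (SE; adjusted p = 0.891). The irf1b gene encodes a paralog of IRF1, an activator in the gamma interferon response. It had 19.5, 19.2, 10.5 and 8.78 CPM in siblings and 19.0, 12.13 and 7.62 CPM in mutants. Sibling replicates 1 and 3 and ddx41 mutant replicate 2 lay together near the top and the other 4 libraries below them, a division that crosses the groups. Its log2 fold change was -0.17 ± 0.36 (SE), with a 95% interval of 0.525 to 1.505-fold (adjusted p = 0.795).

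The effector gene isg15, which encodes a ubiquitin-like protein attached to other proteins during an interferon response, was near the detection floor in siblings. It had 1, 0, 3 and 1 counts in sibling replicates 1, 3, 4 and 5 and 6, 13 and 19 counts in ddx41 mutant replicates 2, 3 and 4. All 3 mutants lay above all 4 siblings, as did the mutants at 14.6% of all tested genes. In all, 5 counts in siblings stood against 38 in mutants, a ratio of 10.1 after library scaling, with an exact 95% interval of 3.98 to 33.0 that covers counting error only. The gene did not pass the filter on low counts. With all 8 genes kept in the test, an alternative chosen after seeing the data, its edgeR adjusted p was 0.0431. It was 0.0934 with no filter, 0.0589 with DESeq2 and 0.0854 without ddx41 mutant replicate 2, so whether the difference is called rests on the setting. In that last fit isg15 passed the filter only through its counts in the remaining mutants, and it was not tested in the other fits without 1 library. At the highest mutant, 1.21 CPM, the transcript was still rare. At no other member were the groups separate.

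The TAP1 and b2m rows had few counts in these cells. Transcripts of TAP1, a chain of the peptide transporter, had 25, 15, 38 and 15 counts in siblings and 2, 8 and 21 in mutants. On the CPM scale these were 1.73, 1.16, 2.91 and 1.07 in siblings and 0.167, 0.614 and 1.33 in mutants, with ddx41 mutant replicate 4 inside the siblings' range. The log2 fold change was -1.25 ± 0.78 (SE; -2.10 without ddx41 mutant replicate 4), with a 95% interval of 0.133 to 1.32-fold (edgeR adjusted p = 0.303, the lowest of the 5), and over 15 alternatives the adjusted p ran from 0.153 to 0.753. The b2m row had 4, 16, 20 and 9 counts in siblings and 4, 0 and 20 in mutants. High and low libraries occurred in both groups, and the log2 fold change was -0.74 ± 1.02 (SE; edgeR adjusted p = 0.677). Without ddx41 mutant replicate 4 it was -2.43 (adjusted p = 0.256), and it was -0.23 on leaving out ddx41 mutant replicate 3.

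The rows of the inducible proteasome subunits PSMB8 and PSMB9 had no count in most libraries. PSMB8 had 1 count in sibling replicate 5 and 0 in the other 6 libraries. PSMB9 had 5 counts in sibling replicate 3 and 14 in sibling replicate 5, and 0 in the other libraries, including all 3 mutants. A count of 0 allows a level of up to 0.250 CPM in the shallowest library, and for PSMB9 2 of the 4 siblings were also at 0. Neither was called in a fit without the filter (edgeR adjusted p = 0.630 for PSMB8 and 0.106 for PSMB9). Zebrafish are known to carry divergent MHC haplotypes with different versions of these genes, and the table has 1 row for each, so reads of another version could not be counted apart; the part this played was not tested. The class I chain gene mhc1uba, named after its values were seen, likewise had 16 counts in sibling replicate 5, 1 in sibling replicate 1 and 0 elsewhere.

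**Figure D2:**
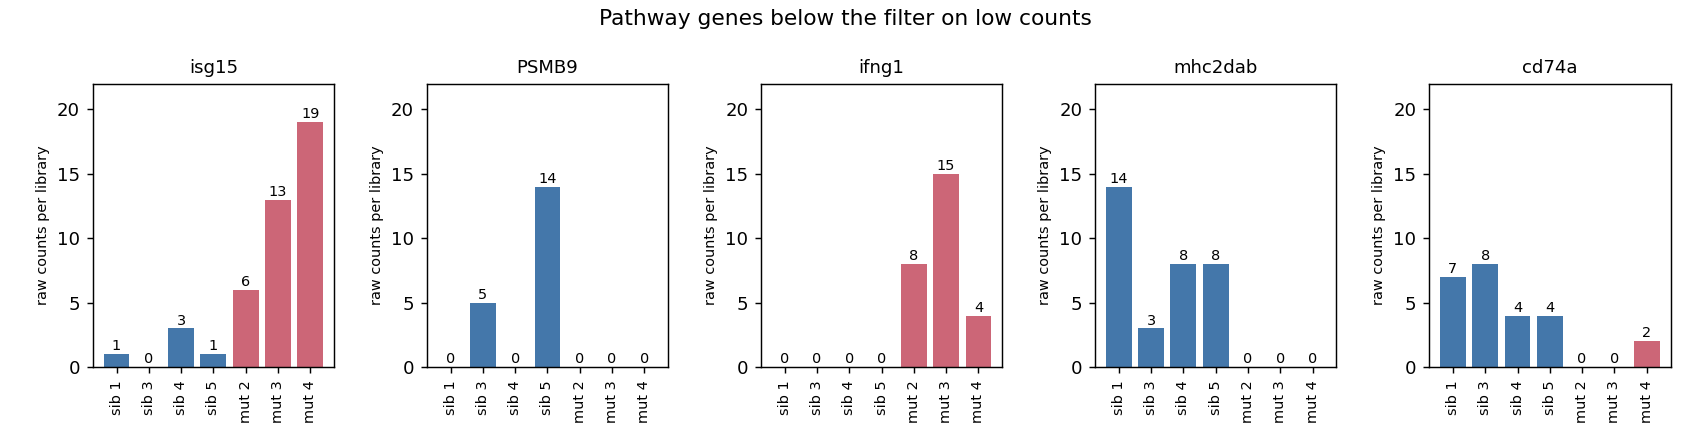
Raw counts per library of isg15, PSMB9, ifng1, mhc2dab and cd74a, which did not pass the filter on low counts, in 4 sibling (blue) and 3 ddx41 mutant (red) libraries, with the count above each bar on a linear axis. The isg15 gene has 6 to 19 counts in mutants and 0 to 3 in siblings, ifng1 has 4 to 15 in mutants and 0 in siblings, and mhc2dab has 0 in mutants and 3 to 14 in siblings.

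The fit placed TAP1 first among the members by p, and the genes most like it across the 7 libraries were sought as a description. By Pearson's r of log2 CPM over 10301 candidate genes, these were PHKG1 (0.981), cnot3b (0.978), BACH2 (0.964), si:ch211-251b21.1 (0.964) and RAB27A (0.962). Picking the highest of 10301 values over 7 libraries favours a high r by itself. All genes were read in the same 7 libraries, with the same differences in depth and group between them. With TAP1 at 2 to 38 counts, its pattern carries large counting error.

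The wider pathway was described from 132 other gene rows, of which 92 were tested, 8 were called higher and 10 lower in the mutants. Their share of calls, 19.6%, lay near the 16.6% of all tested genes, and the median log2 fold change was 0.04, as over all tested genes. Without ddx41 mutant replicate 2, 5 were called lower. By list, 36.4% of receptors and kinases, 35.7% of other STATs and IRFs and 33.3% of MHC class II genes were called. The share was 13.3% for the constitutive proteasome core, 13% for other interferon-stimulated genes and 10.5% for MHC class I. It was 0% for the other inducible proteasome genes. The lists are short, with 4 to 23 tested genes each. Of the 40 rows that were not tested, 14 had at most 3 counts in every library, 3 of them none at all.

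**Figure D3:**
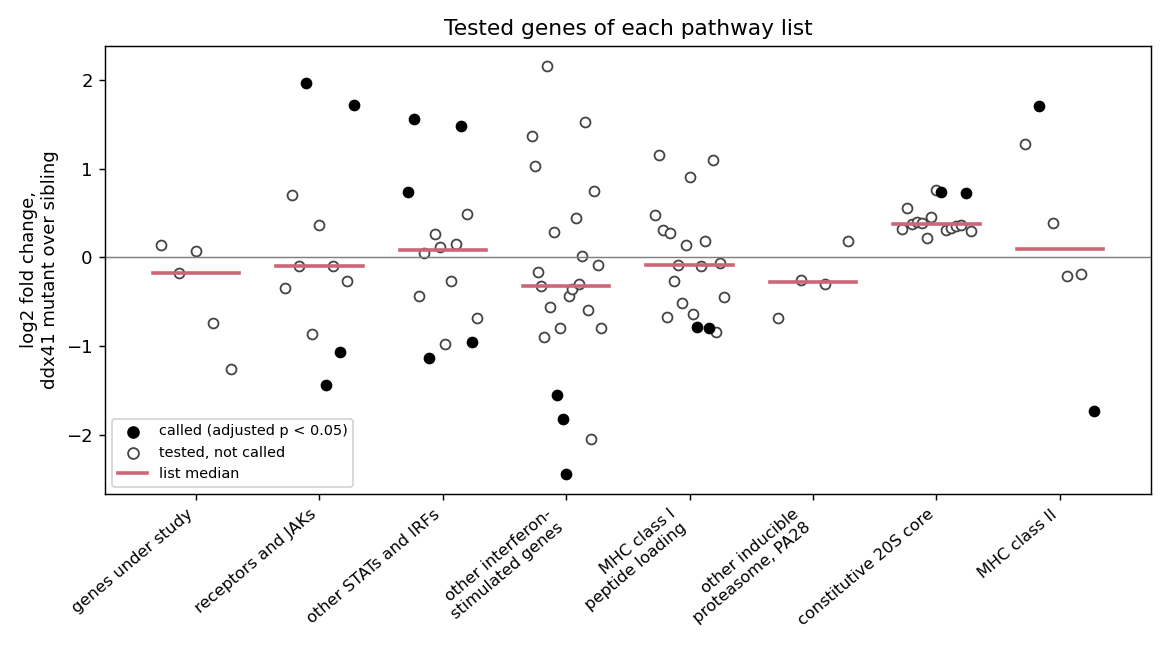
Log2 fold change of ddx41 mutants over siblings for each tested gene of the 8 genes under study and of 7 other pathway lists, with called genes filled, others open, and the list median as a bar. Called genes lie on both sides of 0 among the receptors and kinases and among the other STATs and IRFs, and the genes under study hold none.

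All 6 interferon ligand genes had at least 1 count in some library, and none passed the filter. Type I interferons of fish are called phi. The ifnphi1 gene had 0, 5, 0 and 6 counts in siblings and 3, 5 and 9 in mutants, and ifnphi3 had 5, 3, 2 and 8 in siblings and 7, 14 and 6 in mutants, so both groups held counts and overlapped. The ifnphi2 gene had 9 and 2 counts in sibling replicates 1 and 3, ifnphi4 had 4 counts in ddx41 mutant replicate 4, ifng1r had 1 in ddx41 mutant replicate 3, and each was at 0 elsewhere. The gamma interferon gene ifng1, named after its values were seen, had no count in any sibling and 8, 15 and 4 counts in ddx41 mutant replicates 2, 3 and 4. In the fit without a filter its edgeR adjusted p was 0.0139, and DESeq2 gave 0.0129. The gene entered both fits only through its counts in mutants, and it was not tested in the fits without 1 library. Gamma interferon is made mainly by T cells and natural killer cells in mammals. Of the 5 tested lymphoid markers 2, ighm and cd8a, were called higher in mutants. Only 1 marker of the list was called higher when sibling replicate 1, sibling replicate 5 or ddx41 mutant replicate 2 or 3 was left out. The share of 40% stands beside 8.87% of all tested genes called higher. ZAP70, RAG2 and cd79a were not called, with folds of 1.32, 0.986 and 0.693. With no filter 5 of 11 lymphoid rows had a log2 fold change above 0 and 6 below, with a median of -0.05. The summed lymphoid level over 12 rows was 6.67 to 7.99 CPM in siblings and 10.7 to 16.6 CPM in mutants, cd4-1 was at 0 in every library, and the part of these cells in the ifng1 counts was not tested. In bulk libraries, more cells of a type and more RNA per cell cannot be told apart.

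The receptor and kinase genes that were called moved in opposite directions. Of 11 tested, 2 were called higher, 2 lower and 7 neither, so that 36.4% were called, beside 16.6% of all tested genes. Transcripts of ifngr1, a chain of the gamma interferon receptor, rose 3.90-fold, from 3.95, 2.48, 7.67 and 2.93 CPM in siblings to 11.4, 13.1 and 25.3 CPM in mutants (edgeR adjusted p = 0.00424). TYK2, a Janus kinase of the type I receptor, had 6.99, 8.68, 10.4 and 10.8 CPM in siblings and 22.9, 44.4 and 23.6 CPM in mutants, and rose 3.28-fold (adjusted p = 0.000830). The kinase gene jak2a, which serves the gamma interferon and erythropoietin receptors, fell 2.08-fold, from 181 to 217 CPM across siblings to 77.9 to 111 CPM across mutants (adjusted p = 0.00166). The row named JAK2 was at 40.8 to 47.8 CPM in siblings and 26.9 to 43.2 CPM in mutants. It was also named after its values were seen, and it was not called (edgeR adjusted p = 0.442). Transcripts of il10rb, in mammals a chain of the lambda interferon receptor, fell 2.69-fold, from 33.0 ± 6.42 (SD, n = 4) to 12.29 ± 3.82 CPM (SD, n = 3; adjusted p = 0.00206). JAK1, shared by the receptor types, was at 122 to 182 CPM in siblings and 135 to 162 CPM in mutants and was not called (adjusted p = 0.777). The 4 calls held without each library in turn.

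Among the other STAT and IRF genes 3 of 14 were called higher and 2 lower, or 35.7% called, beside 16.6% of all tested genes. STAT4, which signals for interleukins and type I interferon in lymphocytes of mammals, rose 2.96-fold to 15.5 ± 4.95 CPM (SD, n = 3) from 5.25 ± 2.64 CPM (SD, n = 4; edgeR adjusted p = 0.0102). IRF5, a factor downstream of innate receptors, rose 2.80-fold, with siblings at 4.19 to 5.21 CPM and mutants at 8.41 to 16.1 CPM (adjusted p = 0.00509). STAT3, a mediator of many cytokines, rose 1.67-fold, with siblings at 30.05 to 41.5 CPM and mutants at 52.6 to 59.3 CPM. Its adjusted p of 0.0160 became 0.05001 and 0.0560 on leaving out sibling replicate 1 or 3. The stat6 gene, which encodes a factor of interleukin signalling, fell 2.19-fold from 206 ± 51.5 to 94.3 ± 19.6 CPM (adjusted p = 0.00387). IRF7, a regulator that amplifies type I interferon production in mammals, fell 1.93-fold, from 15.3 to 21.6 CPM in siblings to 6.92 to 12.28 CPM in mutants. As the fifth call of this list it was named after its values were seen, and its adjusted p of 0.0267 was 0.0563, 0.0610, 0.0670, 0.0699 and 0.0833 on leaving out sibling replicate 3, 4 or 5 or ddx41 mutant replicate 2 or 4. In each of those 5 fits the list held 1 lower call.

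**Figure D4:**
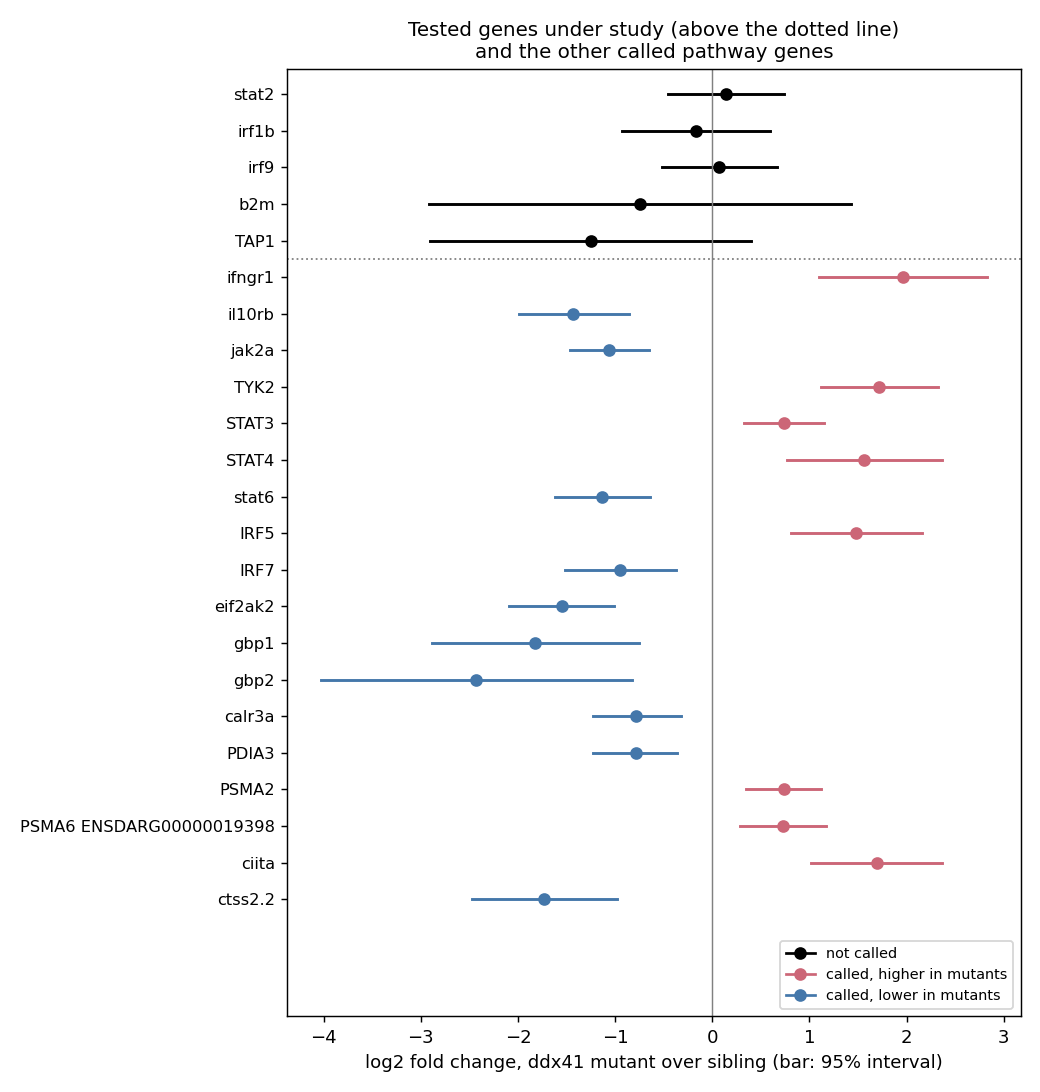
Log2 fold change of ddx41 mutants over siblings with its 95% interval (bar) from edgeR for the 5 tested genes under study (above the dotted line, black, none called) and the 18 other pathway genes that were called (red higher, blue lower in mutants). The intervals of the 5 genes cross 0, and those of stat2, irf1b and irf9 lie between -1 and 1.

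Of 23 other tested interferon-stimulated genes 3 were called lower and none higher by edgeR. This share of 13% stands beside 16.6% of all tested genes called in either direction and 7.69% called lower. The median log2 fold change of the 23 was -0.32 (-0.15 without ddx41 mutant replicate 3). Higher calls depended on the setting: there were 3 among 40 tested with no filter, 2 among 40 with DESeq2 and 1 with limma-voom, against 2, 4 and 1 lower calls. With no filter 1678 of all 27648 genes were called higher and 1600 lower. DESeq2 called 1877 of 27648 higher and 1905 lower, and limma-voom 1648 and 1403 of 18565. The eif2ak2 gene, which encodes the RNA-activated kinase PKR, fell 2.94-fold, from 26.0, 23.8, 24.3 and 19.5 CPM in siblings to 7.91, 9.67 and 6.35 CPM in mutants (edgeR adjusted p = 0.000809). The guanylate-binding protein genes gbp1 and gbp2 fell 3.52-fold and 5.39-fold (adjusted p = 0.0221 and 0.0384). Sibling replicate 4, at 2.61 CPM of gbp1, lay within the mutants' range of 1.75 to 3.53 CPM. The adjusted p of gbp1 was 0.0732, 0.0860 and 0.0563 without sibling replicate 1 or ddx41 mutant replicate 2 or 4. For gbp2 it was 0.105, 0.0684, 0.113, 0.0892 and 0.0771 on leaving out sibling replicate 1 or 5 or ddx41 mutant replicate 2, 3 or 4. The list held 1 lower call without sibling replicate 1 or ddx41 mutant replicate 2 or 4, and 1 higher call without sibling replicate 1 or ddx41 mutant replicate 3. The antiviral GTPase gene mxa, named after its values were seen, had 4.64, 1.47, 1.07 and 4.35 CPM in siblings and 8.41, 7.37 and 6.73 CPM in mutants. All mutants lay above all siblings, and its adjusted p was 0.0678, while DESeq2 gave 0.0403, limma-voom 0.0281 and the edgeR fit without sibling replicate 1 gave 0.0489. Transcripts of RSAD2 and CMPK2, commonly used reporters of an interferon response, had at most 2 and 1 counts in any library.

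For MHC class I chains and peptide loading, 2 of 19 tested genes were called lower and none higher. Calls made up 10.5%, beside 16.6% of all tested genes called in either direction and 7.69% called lower. The median log2 fold change was -0.08. It was 0.03 when scaled by library totals only, and ran from -0.23 to 0.05 on leaving out each library in turn. PDIA3 encodes a disulfide isomerase of the peptide-loading complex. Siblings had 41.4 ± 4.87 CPM (SD, n = 4) and mutants 23.9 ± 3.42 CPM (SD, n = 3), a fall of 1.73-fold (edgeR adjusted p = 0.0155). The calreticulin gene calr3a fell 1.71-fold, from 44.7 ± 5.604 to 26.1 ± 5.85 CPM (adjusted p = 0.0224). Without ddx41 mutant replicate 2 neither was called (adjusted p 0.0787 and 0.0786), and calr3a was at 0.0671 and 0.0592 without sibling replicate 1 or ddx41 mutant replicate 3. These are also general chaperones of the endoplasmic reticulum. A further beta-2-microglobulin gene, b2ml, for which RefSeq's table (assembly GRCz12tu) lists b2m as a synonym, was named after its values were seen. It had 47.4, 38.8, 51.2 and 47.5 CPM in siblings and 26.1, 36.8 and 34.3 CPM in mutants. All mutants lay below all siblings, with a log2 fold change of -0.51 ± 0.20 (SE) and an adjusted p of 0.101.

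The other inducible subunits and the PA28 activator genes were described beside the constitutive core of the proteasome. None of 4 tested (PSMB10, PSME1, PSME2 and PSME3, the last not known as an interferon-induced gene) was called by edgeR, DESeq2 or limma-voom, and none had an unadjusted p under 0.05. PSMB10, an inducible catalytic subunit and the one with the smallest p, was at 4.45 to 7.91 CPM in siblings and 2.69 to 5.08 CPM in mutants (adjusted p = 0.257). Of 15 tested genes of the constitutive 20S core 2 were called higher and none lower. This share of 13.3% stands beside 16.6% of all tested genes called in either direction and 8.87% called higher. All 15 had a log2 fold change above 0, with a median of 0.38. With the replicate number as a block 0 were called, 12 lay above 0 and 3 below, and the median was 0.16. Leaving out ddx41 mutant replicate 2 gave a median of 0.23 with 14 above 0, and leaving out ddx41 mutant replicate 4 gave 0.58. PSMA2 rose 1.66-fold, from 28.6 to 35.6 CPM in siblings to 53.3 to 58.3 CPM in mutants (adjusted p = 0.0126, and 0.0559 without sibling replicate 3). PSMA6 (ENSDARG00000019398, 1 of 2 rows of that name) also rose 1.66-fold, to 88.5 ± 24.5 CPM (SD, n = 3; adjusted p = 0.0255). Its adjusted p was 0.0660, 0.0781, 0.0736, 0.178 and 0.0634 on leaving out sibling replicate 1, 4 or 5 or ddx41 mutant replicate 2 or 3. The core list held 5 higher calls without ddx41 mutant replicate 4, and 1 on leaving out sibling replicate 1, 4 or 5 or ddx41 mutant replicate 2 or 3.

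In the MHC class II list 1 of 6 tested genes was called higher and 1 lower, or 33.3% called, beside 16.6% of all tested genes. The ciita gene encodes the co-activator of class II transcription that gamma interferon induces in mammals. It rose 3.24-fold, from 11.77, 10.5, 14.0 and 7.07 CPM in siblings to 39.7, 47.8 and 17.9 CPM in mutants (edgeR adjusted p = 0.00215). The cathepsin gene ctss2.2 fell 3.31-fold, from 9.13 to 20.8 CPM in siblings to 3.30 to 6.47 CPM in mutants (adjusted p = 0.00372). Both calls held without each library in turn, and neither held with the replicate number as a block (edgeR adjusted p = 0.0679 for ciita and 0.0747 for ctss2.2). The class II chain gene mhc2dab and the invariant chain gene cd74a, named after their values were seen, did not pass the filter. The former had 14, 3, 8 and 8 counts in siblings and 0 in all mutants (adjusted p = 0.0254 with no filter), and the latter had 7, 8, 4 and 4 counts in siblings and 0, 0 and 2 in mutants. The other invariant chain gene, cd74b, had 1.25, 2.48, 1.304 and 0.857 CPM in siblings and 2.58, 4.76 and 3.36 CPM in mutants. All its mutants lay above all siblings, with a fold of 2.43 (95% interval 1.09 to 5.35) and an edgeR adjusted p of 0.122. Summed over the 11 rows of the list, siblings had 98.3 to 120.2 CPM and mutants 123 to 154 CPM. These sums include ciita, at 7.07 to 14.0 CPM in siblings and 17.9 to 47.8 CPM in mutants. With no filter 4 of the 11 rows had a log2 fold change above 0 and 7 below, with a median of -0.26. Class II genes are known from macrophages and other antigen-presenting cells. Of 28 tested macrophage and pan-leukocyte markers 6 were called lower and 1 higher, and the list's median log2 fold change was -0.58 (-0.37 without ddx41 mutant replicate 3). The number lower was 12 without ddx41 mutant replicate 4, and none was called higher when sibling replicate 3, sibling replicate 5 or ddx41 mutant replicate 4 was left out. The list's share of calls in the main fit, 25%, stands beside 16.6% of all tested genes called in either direction and 7.69% called lower. No marker of that list was at 0 in every library, and the part of these cells in the class II counts was not tested. Neutrophil markers, given here beside the higher calls of ifngr1, IRF5 and ciita, summed to 1962 to 3502 CPM in siblings and 2047 to 3792 CPM in mutants. Of 9 tested 3 were called higher and none lower, with 1 higher without sibling replicate 3 and 1 without sibling replicate 5. This share of 33.3% in the main fit stands beside 8.87% of all tested genes called higher. Without ddx41 mutant replicate 4 no neutrophil marker was called higher and 2 were lower. The part of neutrophils in the calls of ifngr1, IRF5 and ciita was not tested.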

How the data were processed

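The authors deposited raw counts per Ensembl gene, 1 column for each of 7 libraries, made by a low-input protocol per the labels. Per the submitters' processing notes the build was GRCz10 and the tools included STAR 2.4.2a, Trim Galore, DESeq2, Cufflinks 2.2.1 and Picard, without roles. How reads were assigned to genes, and by strand or not, is not given in the sources used here; overlapping, antisense and paralogous genes may share reads. Symbols came from a table that named 26269 of 32105 IDs; a listed symbol without a match was tried without its paralog suffix against names in capitals, and 131 of 176 other pathway symbols matched. No genome or sequence was used here.

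Counts were tested in R 4.3.3 with edgeR 4.0.16 (filterByExpr by group, minimum count 10 and total 15; TMM; glmQLFit and glmQLFTest; Benjamini-Hochberg at 0.05 over 18565 genes; common biological coefficient of variation 0.377). Values per library are CPM on TMM-scaled library sizes, not corrected for transcript length, so levels were not compared between genes. Alternatives used other scalings and filters, DESeq2 1.42.0, limma-voom (limma 3.58.1), each library left out and the replicate number as a block. The steps were tested on simulated data. No pair within a group looked like 1 library deposited again (ratio of chi-square to its degrees of freedom, 16.0 to 57.9).

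The genes, the lists and the tests were chosen with earlier results of these data known. Of 10 genes listed for the report 8 are described, and 2 are not reported here. Named with values were the 8 genes, up to 4 called genes of smallest p in each other list or the gene of smallest p, the 5 genes most like the member of smallest p (mean of at least 5 CPM), and genes said to be named after their values were seen.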

Additional observations from a re-analysis of the deposited data

Results flagged for a closer look

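In 29 named genes the 4 siblings were searched for a library far from the other 3, which chance alone gives in about 1 group of 20, and 3 genes had one. Sibling replicate 5 held the only PSMB8 count, 0.0714 CPM. Against 0 in the other 3 siblings any count is flagged, so the rate of 1 in 20 does not apply to that row. Sibling replicate 4 stood high at STAT3, with 41.5 CPM against 30.05 to 31.1 CPM, and was still below all 3 mutants. Sibling replicate 3 stood low at PSMA2, with 28.6 CPM against 34.6 to 35.6 CPM.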

How the results depend on the processing

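No member was called under the other scalings and filters, DESeq2, limma-voom, the block or the fits without 1 library, and isg15 was the 1 member called when all 8 genes were kept in the test, a setting chosen after seeing the data. Over these alternatives the log2 fold change ran from -0.06 to 0.37 for stat2, -0.57 to 0.10 for irf1b, -0.07 to 0.19 for irf9, -2.43 to -0.23 for b2m and -2.10 to -0.81 for TAP1, with the smallest adjusted p of these 5, 0.153, at TAP1 without ddx41 mutant replicate 4. Leaving out each library in turn gave 1014 to 1471 higher and 874 to 1487 lower calls over all genes, against 1646 and 1427, and 7 to 11 higher and 5 to 9 lower calls among the other pathway genes. Replicate numbers 3 and 4 occur in both groups. Deviations from the group means had r = -0.016 and -0.16 between same-numbered libraries, and -0.143 to 0.236 between libraries of different number. With so few libraries these values cannot tell whether same-numbered libraries were paired, and the labels do not say. In a fit with that number as a block, only replicates 3 and 4 of each group inform the group difference. With the replicate number as a block 592 genes were higher and 431 lower, and 5 and 3 of the other pathway genes, a fit with 1 residual degree of freedom. Other scalings and filters and DESeq2 kept these counts within 1.5 times. With the block 11 called pathway genes were no longer called. They were STAT3, PSMA2, PSMA6 (ENSDARG00000019398), ciita, stat6, IRF7, gbp1, gbp2, PDIA3, calr3a and ctss2.2. The mxa gene was called higher with the block (edgeR adjusted p = 0.0138). That fit compares with sibling replicates 3 and 4, at 1.47 and 1.07 CPM, and not with sibling replicates 1 and 5, at 4.64 and 4.35 CPM. Among genes called lower, gbp1 was lost with limma-voom (adjusted p = 0.0696), gbp2 with limma-voom (0.108) and with no filter (0.0504), and calr3a with library totals only (0.0550). At these totals b2m and TAP1 have 95% intervals that hold both no change and more than a 2-fold change.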
